A study of Mus musculus with 16 samples.

Results

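Messenger RNA of 9 chemokine receptor genes, *Ccr1*, *Ccr2*, *Ccr3*, *Ccr7*, *Cxcr2*, *Cxcr3*, *Cxcr4*, *Cxcr6* and *Cx3cr1*, was read in cultured mouse dendritic cells. They were taken by gene symbol from a table of 23356 genes, and each of the 9 symbols was found there once. Bone marrow-derived dendritic cells (BMDCs) came from C57BL/6 mice, sex-matched and 6 to 12 weeks old, and were grown for 6 days in GM-CSF and IL-4, each at 10 ng/ml. The mice were wild-type, *Tmem173*-/-, *Irf1*-/- or *Irf3/7*-/-, the last lacking both factors. Cells of each genotype were left untreated or received c-di-GMP for 18 h, at 25 μg/ml in the sample labels and 50 μg/ml in a legend of the study. The 4 genotypes with or without treatment made 8 conditions of 2 samples each. All knockouts are constitutive, so progenitors also developed without the gene, and no sort of the cultures before RNA was taken is described in the labels.

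c-di-GMP is a bacterial second messenger that binds STING, the protein encoded by *Tmem173*, and IRF1, IRF3 and IRF7 are transcription factors of the interferon response. Chemokine receptors are G protein-coupled receptors that cross the membrane several times, couple mainly to inhibitory G proteins and steer leukocytes along gradients of chemokines. Immature dendritic cells use receptors for inflammatory chemokines such as CCR1 and CCR2. On maturation they typically replace these with CCR7, which binds CCL19 and CCL21 and guides them through lymph vessels to the lymph node.

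Levels are given as FPKM, a fragment number scaled to transcript length and to the mapped total of the library, which allows genes of different length to be compared. The deposited table held 1 FPKM per condition, formed from both samples, with a lower and an upper bound, so no spread between samples and no p-value could be computed. Bounds are given in brackets. A gene was called different between a pair of conditions when log2(FPKM + 0.1) differed by more than 2-fold, when the bounds did not overlap, when at least 1 FPKM was reached in either condition and when the status of both values was OK. The targeted genes served as a check of the labels: *Tmem173* was at 7.49 to 8.97 FPKM in its knockout and at 103 to 118 FPKM in the wild type, *Irf1* at 25.9 FPKM in untreated *Irf1*-/- and 149 FPKM in untreated wild-type BMDCs, and *Irf7* at 4.97 FPKM in treated *Irf3/7*-/- and 687 FPKM in treated wild-type BMDCs. *Irf1* was at 116 FPKM (82.8 to 149) in treated *Irf1*-/- and 245 FPKM (176 to 314) in treated wild-type BMDCs, a called difference, and at 24.1 FPKM in untreated *Tmem173*-/- cells, where the gene is intact, so it is a weak check of that label. *Irf3* was at 7.74 FPKM in untreated *Irf3/7*-/- BMDCs but at 20.2 FPKM after treatment, against 15.8 FPKM in the treated wild type, so it gave no check of the treated cells. Of 10 dendritic cell genes, 9 or 10 were above 1 FPKM in each condition, among them *Itgax*, which encodes CD11c, at 135 to 369 FPKM, whereas *Cd209a* was listed at 0 in treated wild-type BMDCs.

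The 9 receptors differed widely in level. *Ccr7*, *Ccr2*, *Ccr1* and *Cxcr2* each exceeded 100 FPKM in at least 1 condition, *Cxcr4* lay between 13.9 and 39.4 FPKM, and *Cxcr6* between 0.105 and 27.4 FPKM. *Ccr3* stayed close to 1 FPKM, *Cx3cr1* reached at most 1.94 FPKM, and *Cxcr3* at most 0.202 FPKM. Of the 9, 8 reached 1 FPKM in some condition, 5 did so in every condition, and 6 were called in at least 1 of 11 comparisons.

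**Figure D1:**
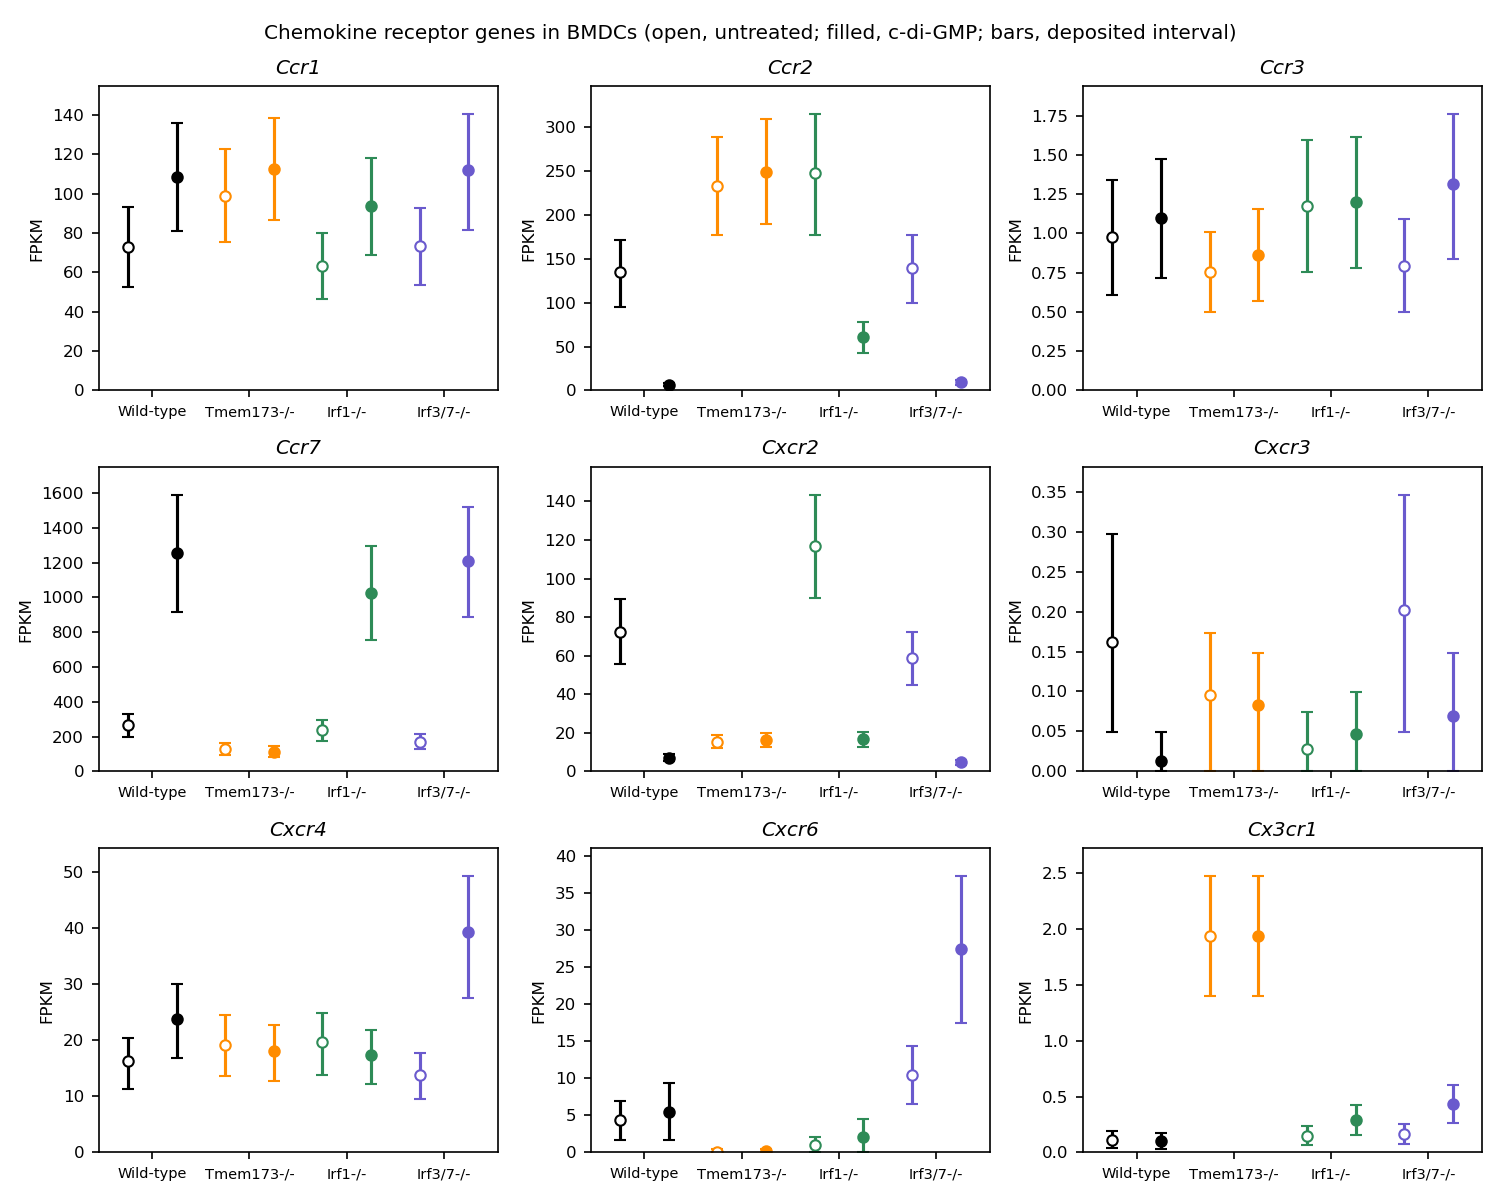
FPKM of the 9 receptor genes (vertical axis, linear, a scale of its own in each panel) in the 4 genotypes, untreated (open circles) or with c-di-GMP (filled circles). Vertical bars are the deposited interval. *Ccr7* is highest in the treated wild-type, *Irf1*-/- and *Irf3/7*-/- cells, where *Ccr2* and *Cxcr2* are below their untreated levels.

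The response of wild-type BMDCs to c-di-GMP was examined first. Of 7 receptors that could be tested, *Ccr7* rose and *Ccr2* and *Cxcr2* fell, beside 20.5% of all tested genes called in either direction. *Ccr7* rose 4.74-fold, *Ccr2* was 20.4-fold lower and *Cxcr2* 10.1-fold lower. In *Irf1*-/- BMDCs the same 3 genes were called in the same directions (3 of 7, against 17.5% of all tested genes), and in *Irf3/7*-/- BMDCs *Cxcr4* and *Cxcr6* rose in addition (5 of 7, against 17.9%). None of 6 receptors was called in *Tmem173*-/- BMDCs, where 0.0552% of all tested genes were.

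*Ccr7*, the lymph node homing receptor, was the most abundant of the 9 in each treated condition other than *Tmem173*-/-. In wild-type BMDCs it was at 265 FPKM (199 to 331) untreated and 1257 FPKM (913 to 1590) with c-di-GMP, which is a rise of 2.25 in log2. *Irf1*-/- cells went from 235 FPKM (175 to 294) to 1026 FPKM (756 to 1295), and *Irf3/7*-/- cells from 171 FPKM (128 to 214) to 1208 FPKM (887 to 1517), log2 changes of 2.12 and 2.82. The 3 treated levels had overlapping bounds, and all lay above every untreated level. In *Tmem173*-/- BMDCs, *Ccr7* was at 130 FPKM (93.1 to 166) without and 114 FPKM (82.2 to 146) with c-di-GMP, the lowest pair of the 8 conditions. The difference from the wild type was called in untreated cells (log2 -1.03) and in treated cells (log2 -3.46), while treated *Irf1*-/- and *Irf3/7*-/- cells differed from the treated wild type by log2 -0.29 and -0.06, which were not called. *Ccr7* lies at chr11:99144198-99155077 in the table, on the minus strand.

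Genes of dendritic cell maturation moved with *Ccr7* in the wild type: 5 of 9 tested were called higher and none lower, among them *Cd40*, *Cd80*, *Cd83*, *Cd86* and *Fscn1*, with a median log2 change of 1.18 against 0.00 over all tested genes. The count was 7 of 9 in *Irf3/7*-/- cells and 5 of 9 in *Irf1*-/- cells. Of all tested genes, 10.5% were called higher in the wild type, 10.2% in *Irf3/7*-/- and 9.67% in *Irf1*-/- cells. Their summed FPKM over 9 genes went from 12270 to 16122 in the wild type and from 11904 to 9260 in *Tmem173*-/- cells, where none of 10 was called. These sums consist mostly of *Ccl17*, at 11439 and 13781 FPKM in the wild type and 11294 and 8620 FPKM in *Tmem173*-/- cells, called in neither. The part of these genes in the *Ccr7* result was not tested. The ligands of CCR7, *Ccl19* and *Ccl21a*, were listed at 0 in all 8 conditions. In log2 units, the genes with the most similar pattern to *Ccr7* over the 8 conditions were *Gadd45b*, *Csrnp1* and *Slamf7*, with root mean square differences of 0.26, 0.27 and 0.27 after each gene's mean was subtracted, beside a spread of 1.38 for *Ccr7* itself.

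*Ccr2*, the receptor through which CCL2 draws monocytes from the bone marrow, had the largest decrease. It was at 135 FPKM (95.0 to 171) in untreated and 6.62 FPKM (4.79 to 8.45) in treated wild-type BMDCs, a difference of -4.33 in log2. *Irf3/7*-/- cells had 139 FPKM (99.6 to 177) and 9.42 FPKM (6.68 to 12.01), a difference of -3.87 in log2. *Irf1*-/- cells started at 247 FPKM (177 to 315) and kept 60.5 FPKM (43.1 to 77.6) after treatment, a difference of -2.03 in log2. The treated *Irf1*-/- level was thus 9.14-fold that of the treated wild type and 6.43-fold that of treated *Irf3/7*-/- cells, and both differences were called. In *Tmem173*-/- BMDCs, *Ccr2* was at 233 FPKM (177 to 288) untreated and 249 FPKM (190 to 309) treated, and the treated level was 37.6-fold that of the treated wild type.

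Without treatment, *Ccr2* was also at a greater level in the *Irf1*-/- and *Tmem173*-/- cells than in the wild type, with bounds that did not overlap, but by log2 0.87 and 0.78, short of the 2-fold threshold. The decrease within *Irf1*-/- cells was smaller than within wild-type cells by 2.30 on the log2 scale, a difference that was not tested. As these are bulk cultures, fewer cells of a type and less RNA per cell cannot be told apart. Among 10 monocyte and macrophage genes, c-di-GMP raised 4 and lowered 4 in wild-type BMDCs, beside 10.5% and 9.96% of all tested genes. Their summed FPKM went from 382 to 1070, opposite to *Ccr2*, with *Ly6c2* as the largest term after treatment. In treated *Irf1*-/- cells, 6 of these 10 were lower than in the treated wild type and none was higher, while *Ccr2* was higher. Of all tested genes, 4.91% were lower and 2.65% higher. In treated *Tmem173*-/- cells, where *Ccr2* was also higher, 5 of the 10 were higher than in the treated wild type and 2 lower. Their median log2 difference was 0.73, and 12.9% of all tested genes were higher and 13.5% lower. The part of monocytes and macrophages in the *Ccr2* results was not tested. The 3 genes most similar to *Ccr2* over the 8 conditions were *Daglb*, *Clec4a2* and *Steap3*, at root mean square log2 differences of 0.53 to 0.68, against a spread of 1.98 for *Ccr2*.

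*Cxcr2*, the receptor for CXCL1, CXCL2 and CXCL3 best known on neutrophils, fell beside *Ccr2* but with another order among genotypes. The wild-type values were 72.4 FPKM (55.6 to 89.3) untreated and 7.20 FPKM (5.49 to 8.91) treated, a difference of -3.31 in log2. *Irf1*-/- cells went from 117 FPKM (89.7 to 143) to 16.5 FPKM (12.8 to 20.3) and *Irf3/7*-/- cells from 58.7 FPKM (45.0 to 72.3) to 4.71 FPKM (3.54 to 5.87), log2 changes of -2.81 and -3.61. Treated *Irf1*-/- cells remained 2.30-fold above the treated wild type and 3.51-fold above treated *Irf3/7*-/- cells. *Tmem173*-/- BMDCs held 15.4 FPKM (11.9 to 19.0) untreated and 16.4 FPKM (12.7 to 20.0) treated. They were therefore 4.70-fold below the wild type before treatment and 2.27-fold above it afterwards, whereas *Ccr2* was not called before treatment in these cells.

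Neutrophil genes did not follow *Cxcr2* in untreated *Tmem173*-/- BMDCs. Of 9 neutrophil genes, 8 were called higher and none lower there than in the untreated wild type, while *Cxcr2* was lower. Their summed FPKM was 20088 and 4032, dominated by *S100a8* and *S100a9*. Of all tested genes, 5.04% were higher and 5.95% lower. In treated *Tmem173*-/- cells against the treated wild type, 8 of the 9 were again higher and none lower, and *Cxcr2* was higher too. The median log2 difference of the 9 was 2.95 there, and 12.9% of all tested genes were higher and 13.5% lower. With c-di-GMP, 3 of the 9 fell in the wild type, 1 of 9 in *Irf1*-/- cells and none in *Irf3/7*-/- cells. The shares of all tested genes that fell were 9.96%, 7.81% and 7.68%. The neutrophil sums went from 4032 to 1912, from 2474 to 1420 and from 2282 to 1467. *S100a8* had an FPKM above its own upper bound in every condition, such as 2531 FPKM (1204 to 2169) in the untreated wild type. Its calls rest on those bounds. The 10.1-fold decrease of *Cxcr2* in the wild type was larger than that of the sum, and the part of these cells in it was not tested. Genes most like *Cxcr2* over the 8 conditions were *Gfra2*, *Cdh1* and *Rufy4*, at 0.47 to 0.51 on the same measure, with 1.53 for *Cxcr2* itself.

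**Figure D2:**
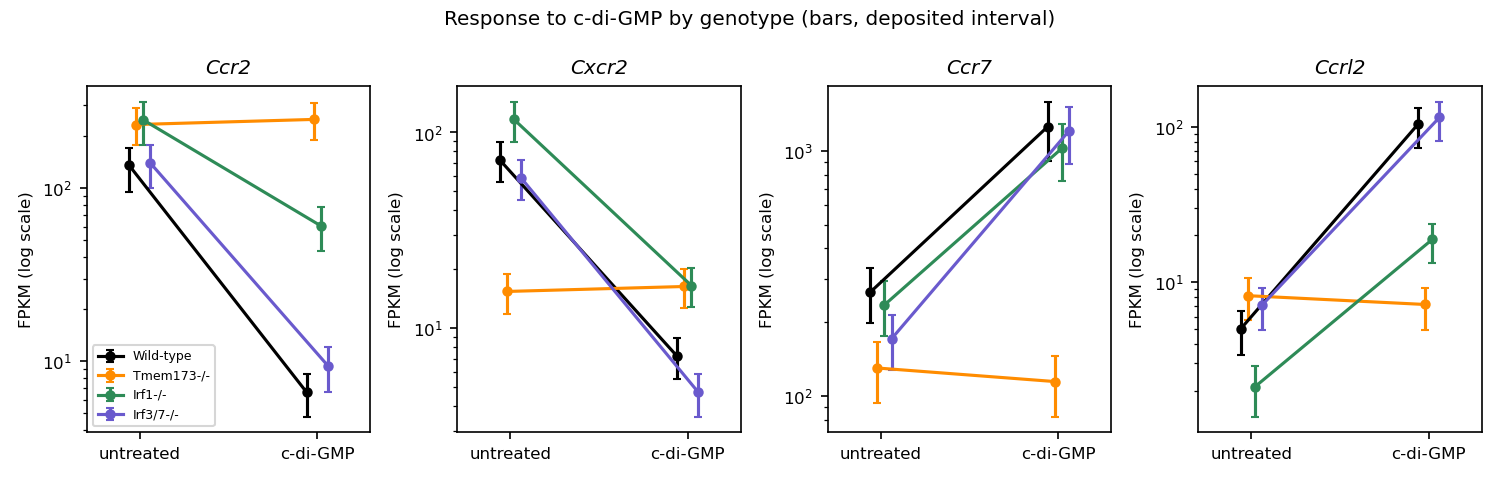
FPKM (log axis) of *Ccr2*, *Cxcr2*, *Ccr7* and *Ccrl2* in untreated and c-di-GMP-treated BMDCs, joined by a line for each genotype, with the deposited interval as bars. The *Tmem173*-/- lines are flat, and the treated *Irf1*-/- value is above the treated wild type for *Ccr2* and *Cxcr2* and below it for *Ccrl2*.

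The upstream sequences of *Ccr2* and *Cxcr2* are shown because both genes fell with c-di-GMP in 3 genotypes. Each is the 250 bases before the transcript start, read 5′ to 3′ on the gene's strand from RefSeq, build GRCm38.p6, and both genes lie on the plus strand, *Ccr2* at chr9:124101933-124102182 and *Cxcr2* at chr1:74153744-74153993. Capitals would mark a match on either strand to the interferon-stimulated response element core (GAAA and GAAA parted by any 2 bases), the kappa B-like string (GGG and TTTCC parted by any 2 bases), the STAT GAS-like string TTCNNNGAA or the IRF core AANNGAAA, and neither window held one. Every match to the response element core also contains a match to the IRF core.
Ccr2: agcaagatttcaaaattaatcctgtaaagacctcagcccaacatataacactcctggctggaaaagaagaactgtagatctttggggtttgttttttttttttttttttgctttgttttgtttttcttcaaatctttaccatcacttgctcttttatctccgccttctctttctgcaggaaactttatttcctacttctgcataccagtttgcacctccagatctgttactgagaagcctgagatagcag
Cxcr2: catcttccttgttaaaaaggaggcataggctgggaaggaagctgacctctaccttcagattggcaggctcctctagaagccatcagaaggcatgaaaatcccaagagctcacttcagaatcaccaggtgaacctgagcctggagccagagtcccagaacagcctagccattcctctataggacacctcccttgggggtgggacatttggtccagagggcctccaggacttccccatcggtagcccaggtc
In windows of this length before 32851 genes' transcripts, the 4 strings were found in 2.98%, 1.41%, 7.02% and 21.3%, in the order given. Promoter entries were matched for 8 of the 9 receptors. AANNGAAA occurred in *Ccr1* at 2 positions and in *Cxcr6* at 1, the kappa B-like string in *Ccr3* at 1, and no string in *Ccr2*, *Cxcr2*, *Cxcr3*, *Cxcr4* or *Cx3cr1*. A match is a description of the letters, and its absence says only that they are not in this window.

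*Ccr1*, which binds CCL3 and CCL5 on monocytes and dendritic cells, varied little between conditions. It was at 72.7 FPKM (52.4 to 93.0) in untreated and 109 FPKM (81.1 to 136) in treated wild-type BMDCs. Over the 8 conditions it ranged from 63.1 FPKM (46.4 to 79.8) in untreated *Irf1*-/- to 112 FPKM (86.6 to 138) in treated *Tmem173*-/- cells, a 1.78-fold span. No pair of neighbours in rank had separate bounds, but those of the lowest and the highest condition did not overlap. No difference of *Ccr1* was called in any of the 11 comparisons, and its log2 changes with c-di-GMP were 0.58 in the wild type, 0.57 in *Irf1*-/- and 0.61 in *Irf3/7*-/- cells.

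*Ccr3*, the eotaxin receptor typical of eosinophils, lay between 0.751 and 1.31 FPKM and was never called. Its bounds overlapped between every pair of neighbours in rank, and it passed the level filter in 8 of 11 comparisons. Eosinophil genes were present in the same cultures, with a summed FPKM of 365 to 1366 over 8 genes. *Cxcr3*, the receptor for CXCL9, CXCL10 and CXCL11 on activated T cells, was at 0.0134 to 0.202 FPKM and was the only one of the 9 that did not reach 1 FPKM. At this level a difference was not detectable, and its bounds reached 0 in 6 of 8 conditions.

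*Cxcr4*, which binds CXCL12 and holds leukocytes in the bone marrow, was called in 2 comparisons, both with treated *Irf3/7*-/- BMDCs. Those cells went from 13.9 FPKM (9.62 to 17.8) to 39.4 FPKM (27.6 to 49.4), a called log2 change of 1.49. Wild-type cells had 16.3 FPKM (11.3 to 20.5) and 23.8 FPKM (16.9 to 30.1), and *Irf1*-/- cells 19.8 FPKM (13.8 to 24.9) and 17.3 FPKM (12.1 to 21.9), neither of which was called. *Tmem173*-/- cells were at 19.3 and 18.1 FPKM. Treated *Irf3/7*-/- cells were 2.27-fold above treated *Irf1*-/- cells, which was called, but exceeded the treated wild type by log2 0.72 with overlapping bounds, which was not. *Cxcl12*, its ligand, had at most 0.177 FPKM in these cultures. *Kdm3a*, *Rcsd1* and *Ell* were most like *Cxcr4*, at 0.19 to 0.20, with 0.42 for *Cxcr4*.

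*Cxcr6*, a receptor for CXCL16 found on effector T cells and natural killer (NK) cells, separated the genotypes more than the treatment. Wild-type BMDCs had 4.34 FPKM (1.71 to 6.98) untreated and 5.52 FPKM (1.62 to 9.41) with c-di-GMP. *Irf3/7*-/- cells had 10.5 FPKM (6.52 to 14.4) and 27.4 FPKM (17.5 to 37.3), the highest pair. *Irf1*-/- cells had 0.957 FPKM (0 to 2.02) and 2.02 FPKM (0 to 4.52), and *Tmem173*-/- cells 0.105 FPKM (0 to 0.456) and 0.126 FPKM (0 to 0.527). *Cxcr6* was therefore called lower in *Tmem173*-/- than in wild-type cells with and without treatment, at log2 -4.64 and -4.44, values that depend on the 0.1 added. In treated *Irf3/7*-/- cells it was 4.97-fold above the treated wild type and 13.6-fold above treated *Irf1*-/- cells. The difference of treated *Irf1*-/- cells from the treated wild type, log2 -1.41, was not called, as the bounds overlapped.

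T and NK cell genes were likewise lowest in *Tmem173*-/- cells and low in *Irf1*-/- cells. *Cd3e*, a chain of the T cell receptor complex, was at 14.3 FPKM untreated and 23.3 FPKM treated in *Irf3/7*-/- cells, where the wild type had 9.18 and 5.41 FPKM, *Irf1*-/- cells 0.641 and 0.479 FPKM, and *Tmem173*-/- cells 0.0701 and 0.0103 FPKM. Summed over 10 such genes, the FPKM was 407 and 369 in the wild type, 397 and 1029 in *Irf3/7*-/-, 12.03 and 19.3 in *Irf1*-/- and 1.81 and 1.80 in *Tmem173*-/- BMDCs, with *Gzma*, a granzyme, as the main term. In treated *Irf3/7*-/- cells 7 of 8 tested genes of the list were higher than in the treated wild type and none lower, with a median log2 difference of 1.58. Of all tested genes, 4.61% were higher and 2.69% lower. In untreated *Tmem173*-/- cells, *Gzma* and *Ncr1* were listed at 0. All 9 tested genes of the list were lower there than in the untreated wild type, beside 5.95% of all tested genes. The 3 genes most like *Cxcr6* over the 8 conditions were *Sytl3*, *Ms4a4b* and *Cd96*, at 0.57 to 0.58 against a spread of 2.37 for *Cxcr6*. The part of T and NK cells in the *Cxcr6* result was not tested.

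The table gave *Cxcr6* a locus of 62391 bases that it shared with *Fyco1*, a gene of the opposite strand. In the GENCODE M21 annotation *Cxcr6* itself is at chr9:123806475-123811760 on the plus strand, and 0 of its 1931 exon bases lie within a *Fyco1* exon. *Fyco1* went from 4.43 to 11.1 FPKM with treatment in wild-type cells, and from 4.20 to 13.7 FPKM in those lacking IRF1. Its values were 4.17 and 7.52 FPKM in *Irf3/7*-/- cells and 3.40 and 4.25 FPKM in *Tmem173*-/- cells. It was called higher with c-di-GMP in wild-type and *Irf1*-/- cells, where *Cxcr6* was not called. The strand setting of the Cuffdiff run is not given in the sources used here, so reads of intronic *Fyco1* RNA cannot be told apart from *Cxcr6* reads. The bounds of *Cxcr6* were also wide, with a half-width of 36.1% to 217% of its FPKM, compared with 22.4% to 24.7% for *Cxcr2*.

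**Figure D3:**
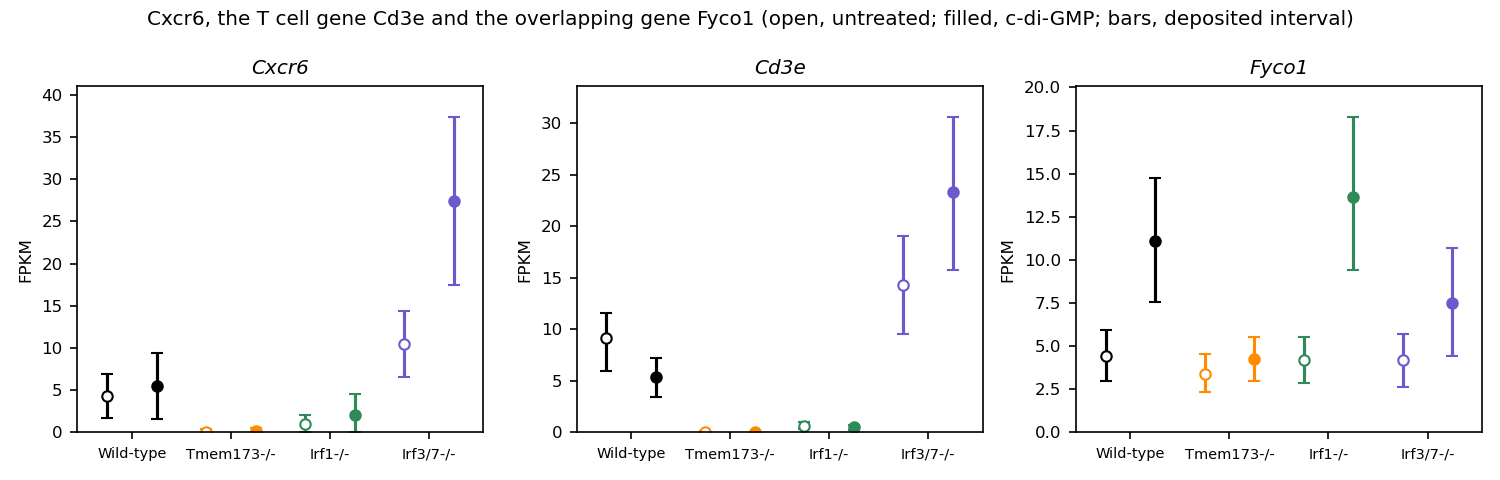
FPKM (vertical axis, linear, a scale of its own in each panel) of *Cxcr6*, of *Cd3e* and of *Fyco1* in untreated (open) and c-di-GMP-treated (filled) BMDCs of the 4 genotypes, with the deposited interval as bars. *Cxcr6* and *Cd3e* are highest in *Irf3/7*-/- and near 0 in *Tmem173*-/- cells, while *Fyco1* is at 3.40 to 4.43 FPKM in all untreated conditions.

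The upstream window of *Cxcr6* is shown for the 1 match it held, to AANNGAAA, in capitals. It is the 250 bases at chr9:123806227-123806476 on the plus strand of GRCm38.p6, from RefSeq, and the match begins at base -213 counted from the transcript start.
Cxcr6: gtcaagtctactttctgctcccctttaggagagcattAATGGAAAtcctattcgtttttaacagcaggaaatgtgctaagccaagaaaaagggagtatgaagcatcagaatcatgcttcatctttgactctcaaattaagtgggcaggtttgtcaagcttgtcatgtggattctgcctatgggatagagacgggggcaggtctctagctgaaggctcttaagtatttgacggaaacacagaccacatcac
The string is found in 21.3% of all windows of this length.

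*Cx3cr1*, the fractalkine receptor of monocytes and macrophages, was called only where *Tmem173*-/- and wild-type BMDCs were compared. The knockout cells had 1.93 FPKM (1.40 to 2.48) untreated and 1.94 FPKM (1.40 to 2.48) treated. In the other 6 conditions it lay between 0.105 and 0.430 FPKM, with every upper bound below the lower bounds in *Tmem173*-/-. The difference from the wild type was called in untreated (log2 3.25) and treated cells (log2 3.32). *Csf1r*, the receptor for macrophage colony-stimulating factor, was also higher in *Tmem173*-/- cells, at 194 and 204 FPKM against 54.3 and 48.6 FPKM in the wild type, and 2 of 10 monocyte and macrophage genes were called higher and none lower in the untreated comparison. In the treated comparison 5 were higher and 2 lower, the lower ones being *Ly6c2* at log2 -2.22 and *Mertk* at log2 -2.15. Of all tested genes, 5.04% were higher and 5.95% lower without treatment, and 12.9% and 13.5% with it. The part of such cells in the *Cx3cr1* result was not tested. Its ligand *Cx3cl1* was at 15.5 to 36.3 FPKM.

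Differences between genotypes were then counted over the 9 receptors. The comparisons within a treatment share the wild-type values, so they are given side by side and not set against each other. Treated *Tmem173*-/- cells differed from the treated wild type in 5 of 8 tested receptors (26.3% of all genes tested were called in either direction), with *Ccr2*, *Cxcr2* and *Cx3cr1* higher and *Ccr7* and *Cxcr6* lower. Treated *Irf1*-/- cells differed in 2 of 7 (7.56% of all genes), *Ccr2* and *Cxcr2*, both higher. Treated *Irf3/7*-/- cells differed in 1 of 7 (7.3%), *Cxcr6*, which was higher. Set directly against each other, treated *Irf1*-/- and *Irf3/7*-/- cells differed in 4 of 7 (9.84%), with *Ccr2* and *Cxcr2* higher and *Cxcr4* and *Cxcr6* lower in *Irf1*-/-. In untreated cells, 4 of 7 receptors differed in *Tmem173*-/- (11% of all genes), *Cx3cr1* higher and *Ccr7*, *Cxcr2* and *Cxcr6* lower. None of 7 differed in untreated *Irf1*-/- cells (4.78%) and none of 6 in untreated *Irf3/7*-/- cells (2.04%).

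**Figure D4:**
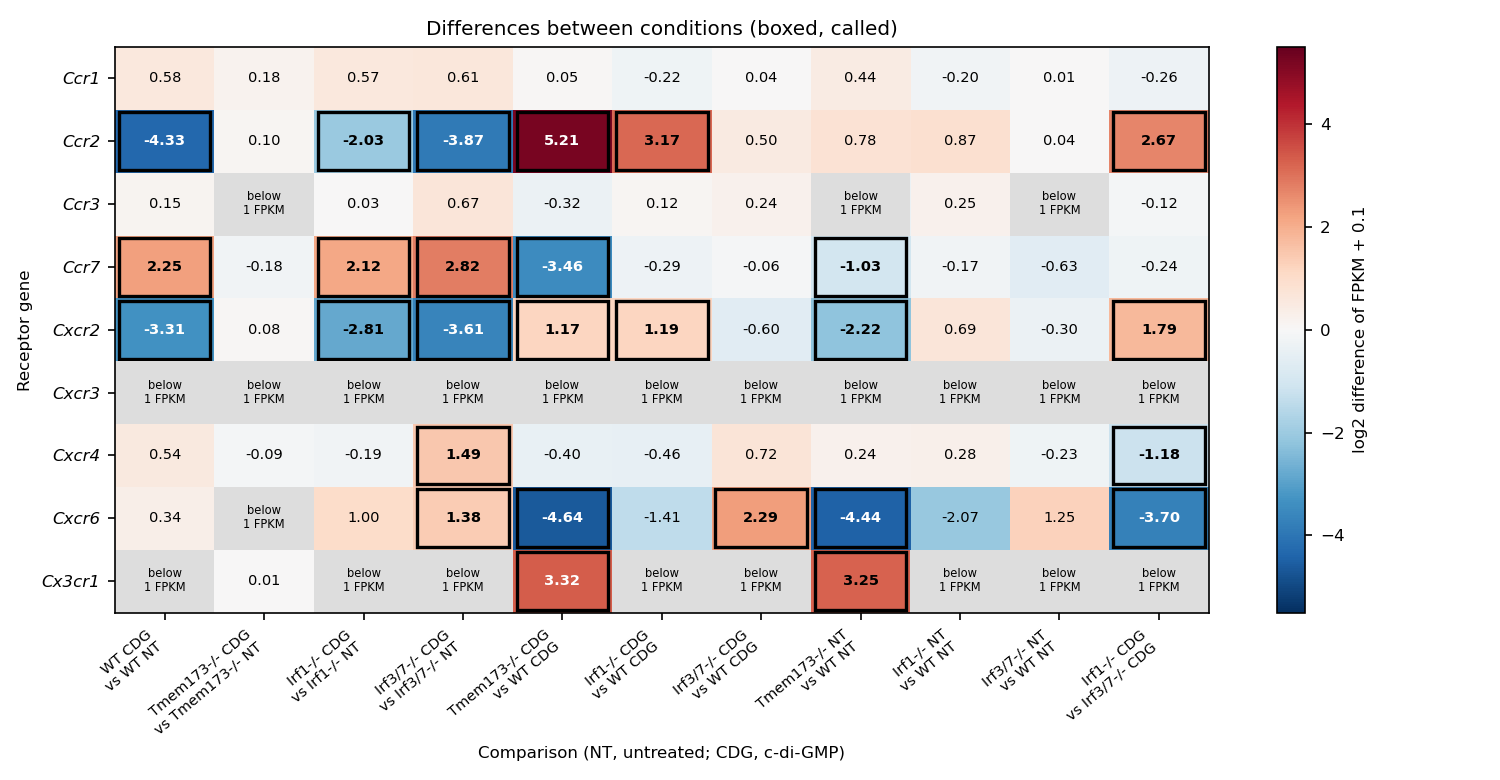
Log2 difference of FPKM + 0.1 (colour and number) of the 9 receptors (vertical) in the 11 comparisons (horizontal, first named condition minus the second, NT untreated, CDG c-di-GMP). Boxes mark called differences and grey cells comparisons in which neither condition reached 1 FPKM. *Ccr2* has the largest positive value, 5.21, *Cxcr6* has the most negative, -4.64, and *Ccr1* and *Ccr3* have no box.

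Another 16 receptor genes of the family were read for context, of which 10 stayed below 1 FPKM throughout and 6 did not. In wild-type BMDCs 4 of these 6 rose with c-di-GMP and none fell, beside 10.5% and 9.96% of all tested genes. *Ccrl2*, an atypical receptor that binds chemerin without signalling, had the largest rise, from 5.00 FPKM (3.41 to 6.56) to 104 FPKM (73.6 to 132), 20.9-fold. It reached 115 FPKM (80.8 to 145) in treated *Irf3/7*-/- but 18.8 FPKM (13.3 to 23.8) in treated *Irf1*-/- cells, and the latter was lower than the treated wild type by log2 -2.46, the opposite direction to *Ccr2* and *Cxcr2*. In *Tmem173*-/- cells it was at 8.17 and 7.17 FPKM.

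*Cxcr5*, which guides cells to B cell follicles, rose from 0.258 to 3.57 FPKM in the wild type, from 0.207 to 1.80 FPKM in *Irf1*-/- and from 0.361 to 1.62 FPKM in *Irf3/7*-/- cells. *Xcr1*, the marker of cross-presenting dendritic cells, rose from 0.268 to 1.12 FPKM in the wild type and was also called in both IRF knockouts. *Cmklr1*, the signalling chemerin receptor, rose from 12.5 to 27.3 FPKM in the wild type and was lower in treated *Irf1*-/- cells, at 12.1 FPKM. It was highest in *Tmem173*-/- cells, at 39.5 FPKM (29.6 to 49.5) untreated and 44.6 FPKM (34.2 to 55.1) treated. The untreated level was called higher than that of the wild type (9.60 to 15.3). *Ccr4* reached at most 1.08 FPKM and was lower in untreated *Tmem173*-/- cells than in the untreated wild type.

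In the table *Ccr1* lies at chr9:123962125-123968692, *Ccr3* at chr9:124021970-124031689, *Ccr2* at chr9:124102182-124109140 and *Cx3cr1* at chr9:120048682-120068296. *Cxcr2* is at chr1:74153993-74161246, *Cxcr4* at chr1:128588198-128592299 and *Cxcr3* at chrX:101731535-101734147, all on GRCm38 positions. *Ccr1*, *Ccr2*, *Ccr3* and *Cxcr6* are close to each other on chromosome 9, and near-identical sequence could move reads between them. Of the 35-base words in *Ccr2* transcripts, the length of the reads, 2.93% also occur in another gene. The share was 10.6% for *Cxcr2*, with *Dnajb14* in 89 of 322 words, 2.52% for *Cx3cr1*, 0.464% for *Ccr1* and 0.401% for *Ccr3*, the last pair sharing 13 words. *Ccr7*, *Cxcr3*, *Cxcr4* and *Cxcr6* had no shared word. Whether reads moved between genes was not tested.

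The chemokines that bind these receptors were read as a list of 24 genes. In wild-type BMDCs, 11 of 19 tested ligands rose with c-di-GMP and 1 fell, with a median log2 change of 1.74, against 0.00 over all tested genes. Of all tested genes, 10.5% rose and 9.96% fell. Among called ligands, the largest rises were of *Ccl5* at log2 5.52, *Cxcl10* at 5.42 and *Ccl8* at 4.41, and *Ccl24* fell by 1.19. *Cxcl11*, at 0.156 FPKM (0 to 0.672) and 22.7 FPKM (0.166 to 50.5), was not called because the bounds overlapped. In *Irf1*-/- and *Irf3/7*-/- BMDCs 10 of 20 ligands rose and 1 fell in each, and none of 15 was called in *Tmem173*-/- BMDCs. Over all tested genes, 9.67% rose and 7.81% fell in *Irf1*-/- cells, and 10.2% and 7.68% in *Irf3/7*-/- cells. The share called in *Tmem173*-/- cells was 0.0552%.

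Several ligands of the 2 receptors that fell rose in the wild type. For CCR2, *Ccl2* rose from 279 to 1087 FPKM, *Ccl7* from 65.2 to 321 FPKM and *Ccl12* from 8.95 to 30.1 FPKM. For CXCR2, *Cxcl1* rose from 0.998 to 3.72 FPKM, *Cxcl2* from 6.79 to 24.6 FPKM and *Cxcl3* from 15.9 to 82.4 FPKM. *Ppbp*, also a CXCR2 ligand, was at 5.06 and 3.13 FPKM, which was not called, and *Cxcl5* stayed below 1 FPKM. In *Irf3/7*-/- cells the CXCR2 ligands rose further, to 18.2, 70.4 and 165 FPKM. In *Irf1*-/- cells *Cxcl2* and *Cxcl3* were at 12.3 and 18.1 FPKM after treatment and 17.3 and 23.7 FPKM before it, neither called, although *Cxcr2* fell there too.

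Against treated wild-type cells, 5 of 20 ligands were higher and 3 lower in treated *Irf1*-/- cells, beside 2.65% and 4.91% of all tested genes. *Ccl11*, *Ppbp*, *Ccl8*, *Ccl3* and *Ccl9* were higher and *Cxcl3*, *Cxcl9* and *Cxcl10* lower. In treated *Irf3/7*-/- cells 7 were higher and 4 lower of 20, beside 4.61% and 2.69% of all tested genes. *Cxcl5*, *Ppbp* and *Cxcl1* led the higher ones at log2 3.33, 3.26 and 2.26, and *Ccl5* and *Cxcl10* the lower ones at log2 -1.90 and -1.72. *Cxcl16*, the ligand of CXCR6, rose in wild-type, *Irf1*-/- and *Irf3/7*-/- cells, from 43.5 to 140, from 29.3 to 73.2 and from 48.0 to 121 FPKM.

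**Figure D5:**
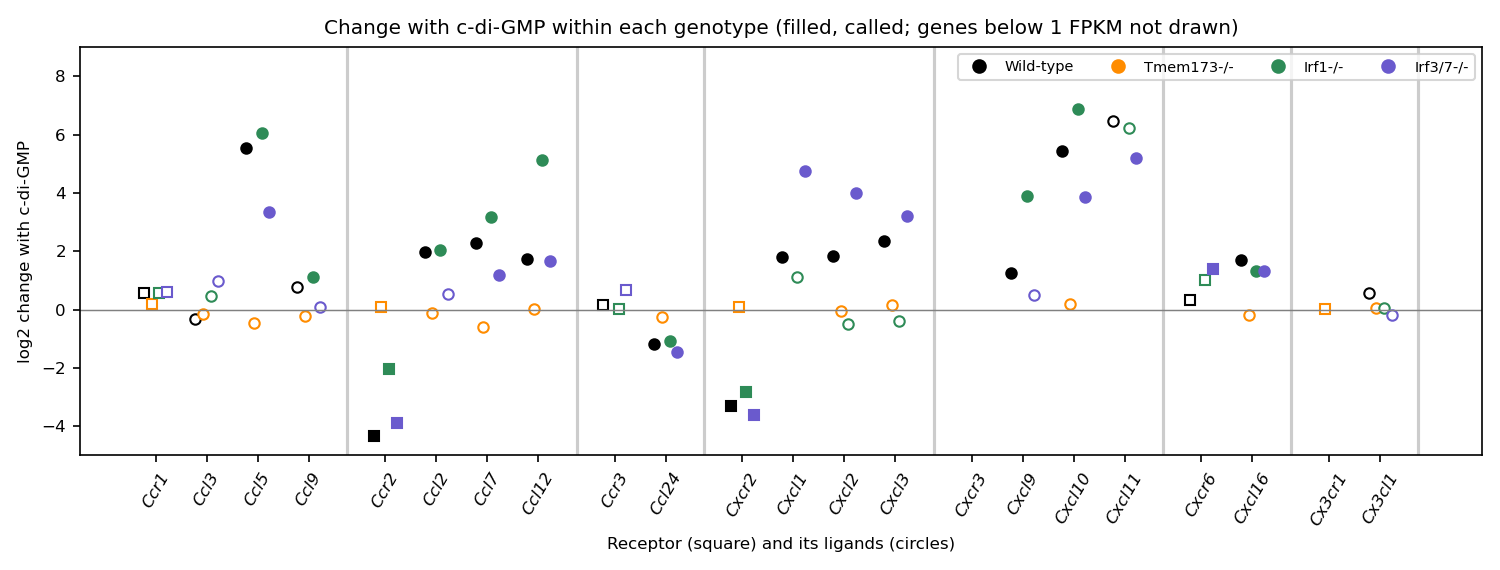
Log2 change of FPKM + 0.1 with c-di-GMP (vertical axis) for 7 receptors (squares) and ligands of each (circles), coloured by genotype. Filled symbols are called, open symbols are not, and genes below 1 FPKM in both conditions are left out. The *Ccr2* and *Cxcr2* squares lie below 0 and the ligands drawn for them above it in the wild type, while the *Tmem173*-/- symbols stay within 1 log2 unit of 0.

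Genes that act inside the cell behind the receptors were read as a further list. Of 32 tested in wild-type BMDCs 5 were called, beside 20.5% of all tested genes: *Rgs1* and *Pik3r5* rose, at log2 2.05 and 1.04, and *Coro1a*, *Rgs18* and *Arrb1* fell, by 1.64, 1.52 and 1.40. *Rgs1* and *Rgs18* encode regulators that shorten G protein signalling, *Pik3r5* a subunit of the G protein-activated PI3 kinase, *Coro1a* an actin-binding coronin, and *Arrb1* a β-arrestin that uncouples receptors. In treated *Irf1*-/- cells *Rgs16* was lower than in the treated wild type (log2 -1.66) and in treated *Irf3/7*-/- cells it was higher (log2 2.18). *Rgs18* and *Rgs10* were higher and *Adrbk2*, a receptor kinase, lower in both knockouts.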

How the data were processed

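RNA was measured by RNA-seq (stranded mRNA libraries, 35-bp paired-end reads) in 16 samples, 2 for each of 8 conditions. The authors ran Cuffdiff, version 1.06 per the submitters' processing notes, and deposited FPKM values per gene and condition, with replicates combined and with an interval and a status. The notes name build mm9, but of 21681 genes with 1 namesake in GENCODE M21 (GRCm38), 21454 had a table position that overlapped it, and GRCm38 positions are given. The aligner, annotation and strand setting of Cuffdiff are not given in the sources used here. Columns whose headers begin with TM173GDP were read as *Tmem173*-/- with c-di-GMP. A further 4 columns of another knockout were not used.

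Values were compared as log2(FPKM + 0.1) in 11 comparisons over all genes, with the call described above. Depth cannot be read from FPKM. Instead, the median half-width of the interval was 25.2% to 25.7% of the FPKM over 4710 genes of 10 FPKM or more throughout. Sums over marker genes leave out *Ccl22*, whose status was not OK in some conditions. The named genes were the 9 receptors, other receptors with at least 1 FPKM, up to 8 called ligands or signalling genes per comparison, and the 3 genes most like each receptor. The receptors, the lists and the rules were chosen with earlier results of these data known, and the letters AANNGAAA were added after the first promoter search. Values of further genes beside a result (*Itgax*, *Cd209a*, *Csf1r*, *Ly6c2*, *Mertk*, *Ccl17*, *Cxcl11*, *S100a8*, *S100a9*, *Cd3e*, *Gzma*, *Ncr1*, *Fyco1*) were chosen after they had been seen. The alternatives were a pseudocount of 1 or 0.01, no filter, a minimum of 5 FPKM, a fold threshold of 1.5 or 4, median centring and the fold change alone. The calls were tested on simulated data, the outcome of which is not given here. 1 item is not reported here. Python 3.11.15, numpy 2.4.6, pandas 2.3.3 and matplotlib 3.10.9 were used.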

Additional observations from a re-analysis of the deposited data

How the results depend on the processing

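Of 27 calls among the 9 receptors, 17 held under all 8 alternatives, 10 were lost under at least 1, and none reversed. The calls of *Ccr2* and *Ccr7* with c-di-GMP in 3 genotypes and of *Cxcr2* in the same cells held throughout. With a fold threshold of 4, 3 receptors in place of 5 were called for c-di-GMP in *Irf3/7*-/- cells, where *Cxcr4* and *Cxcr6* were lost. Over all 11283 tested genes, 362 were then higher and 138 lower. Treated *Irf1*-/- against treated wild-type cells had 1 in place of 2, without *Cxcr2*, beside 57 higher and 175 lower of 11079 genes. Treated *Irf1*-/- against *Irf3/7*-/- cells had 2 in place of 4, without *Cxcr2* and *Cxcr4*, beside 97 higher and 284 lower of 11235 genes. A minimum of 5 FPKM left 2 in place of 4 in untreated *Tmem173*-/- cells, without *Cx3cr1* and *Cxcr6*. Of 8440 genes tested there, 379 were higher and 421 lower. In treated *Tmem173*-/- against treated wild-type cells, 4 in place of 5 were called with a threshold of 4 (*Cxcr2* lost) and 4 with a minimum of 5 FPKM (*Cx3cr1* lost). Over all genes, 437 were higher and 737 lower of 11318 with the former, and 1051 and 1157 of 8795 with the latter. *Ccr7* in untreated *Tmem173*-/- cells was lost with a threshold of 4, where 143 genes were higher and 279 lower of 11101. Without the filter, treated *Irf3/7*-/- against treated wild-type cells had 2 in place of 1, with *Cx3cr1* added. Of 23247 genes, 734 were then higher and 406 lower. In untreated *Irf1*-/- against untreated wild-type cells, none became 2 with a threshold of 1.5 (*Ccr2* and *Cxcr2*) and 1 with the fold change alone (*Cxcr6*). Of 11017 genes, 224 were higher and 482 lower with the former, and 190 and 435 with the latter. In untreated *Irf3/7*-/- cells none became 1 with the fold change alone (*Cxcr6*), beside 187 higher and 123 lower of 11004 genes. No paired analysis was possible because the replicates of each condition were combined in the deposited values, and no replicate could be left out for the same reason. The interval is the only error available, and it cannot be checked against samples here.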

Other observations

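Basophil and mast cell genes were read as a further list. Summed over 8 genes, their FPKM was 72.2 in untreated and 88.0 in treated wild-type BMDCs, 171 and 264 in *Irf3/7*-/-, 64.7 and 95.1 in *Irf1*-/-, and 73.7 and 60.2 in *Tmem173*-/- BMDCs. The greatest sum was in treated *Irf3/7*-/- cells, the condition in which *Cxcr4* and *Cxcr6* were also at their greatest level. B cell genes were low, with sums over 6 genes between 3.38 and 11.0 FPKM.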
